A study of Mus musculus with 15 samples.

Results

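The 9 genes described here are Tnfrsf22, Tnfrsf23, Tnfrsf26, Tspan32, Cd81, Osbpl5, Nap1l4, Tssc4 and Trim12a, all on mouse chromosome 7. They were chosen because earlier work on the same arrays had found them to differ between Junb knockout and wild type macrophages, so their genotype differences are given as a description and without a test. Every probe whose RefSeq accession matched one of these symbols was used. That gave 15 probes, all 15 of which passed the filter on dim probes, out of 32517 kept probes and 14193 named genes.

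The data came from 15 single-colour Agilent arrays of macrophages grown from mouse bone marrow. The knockout cells carried floxed Junb alleles with Cre recombinase on both copies of Lyz2 (Junb-fl/fl Lyz2-Cre+/+), and the labels give C57BL/6 as their genetic background. The wild type cells are labelled C57BL/6. Lyz2 encodes a lysozyme of myeloid cells, so Cre is made in macrophages and their relatives, and Junb encodes a subunit of the transcription factor AP-1. There were 4 untreated knockout arrays, 3 knockout arrays after lipopolysaccharide (LPS, a bacterial cell wall component) at 100 ng/ml for 4 h, 4 untreated wild type arrays and 4 wild type arrays after the same LPS treatment. The replicates are wells, and the labels do not say how many mice they came from, so the p-values measure the spread between wells. They do not give the mice's sex or age either.

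Tnfrsf22 and Tnfrsf23 encode mouse decoy receptors for TRAIL, which bind this death ligand at the cell surface but lack the death domain that carries the signal inward. Tspan32 and Cd81 encode tetraspanins, membrane proteins that gather receptors and adhesion molecules into patches. The 8 genes other than Trim12a lie close together at the distal end of the chromosome, in and beside a well-known imprinted domain, where some genes are expressed from only one parental copy. Trim12a lies elsewhere on the chromosome, in a family of Trim5-related genes, several of which respond to interferon and act against viruses.

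All values are log2 of the processed signal over the array's 75th percentile. A common floor of -4.52 was set at the highest of the arrays' own limits for signal well above background, and values at the floor have no order among themselves. The 75th percentile ranged from 482 to 1490 over the arrays and 51.0% to 63.2% of spots were well above background. Junb itself was at the floor on all 7 knockout arrays, against 0.43 to 0.91 on untreated and 3.08 to 3.71 on LPS-treated wild type arrays. All knockout arrays lay on one slide and all wild type arrays on the other, so slide and genotype cannot be told apart. Lyz2, whose locus carries Cre, was 0.36 to 0.81 on untreated and 1.91 to 2.40 on LPS-treated knockout arrays, against 8.67 to 8.94 and 8.71 to 9.49 on wild type arrays. Of 5 sex-linked genes, the Y-linked genes Ddx3y, Eif2s3y and Uty were higher and Xist was lower in knockout cells. Ddx3y was above background on all knockout and no wild type arrays, and Xist on all wild type and no knockout arrays. The Y-linked gene Kdm5d did not pass (-0.94 ± 0.76, SE, without LPS, limma adjusted p = 0.47). Summed macrophage marker signal (8 of 9 markers kept) overlapped between genotypes, at 538 to 1352 times the 75th percentile on untreated knockout arrays and 887 to 1038 on untreated wild type arrays. Signal of B cell markers (2 of 5 kept) summed to 0.584 to 0.640 on untreated knockout arrays and 0.478 to 0.635 on untreated wild type arrays, and that of T and NK cell markers (3 of 6 kept) to 0.327 to 1.13 on untreated knockout arrays and 0.579 to 0.969 on untreated wild type arrays. With LPS, B cell marker sums did not overlap, at 0.306 to 0.315 on knockout arrays and 0.191 to 0.243 on wild type arrays, nor did erythroid ones (2 of 4 kept, 0.273 to 0.573 and 0.146 to 0.264 on the same arrays). Neutrophil marker sums (4 of 6 kept) were lower on knockout arrays under both treatments, at 1.18 to 1.32 without and 4.77 to 5.58 with LPS, against 1.49 to 2.38 and 6.06 to 8.34 on wild type arrays. By single gene, 1 of these 4 was called lower in knockout cells under each treatment and 3 did not pass. Their median difference was -0.07 without and 0.24 with LPS, so the sums do not stand for all 4. With LPS, 1 of the 2 B cell markers was called higher and the 2 erythroid markers did not pass. Without LPS, 1 of the 2 erythroid markers was called higher and the 2 B cell markers did not pass. Of the 8 macrophage markers, 1 was called higher and 1 lower without LPS, and 1 was called lower with LPS. The part of slide, sex, the Cre locus and other cell types in the differences below was not tested. In bulk RNA, fewer cells of a type and less RNA per cell cannot be told apart.

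Promoters show what kind of sequence lies before these genes. RefSeq promoters (250 bases before to 50 after the start, build GRCm38.p6) were matched for 6 of the 9 genes, with 8 promoters in all. Those of Tnfrsf23 on the minus strand at chr7:143685826-143686125, Tspan32 on the plus strand at chr7:143004796-143005095 and Cd81 on the plus strand at chr7:143052500-143052799 are printed to compare 3 genes that were far higher in knockout cells, with CpG dinucleotides in capitals.
Tnfrsf23: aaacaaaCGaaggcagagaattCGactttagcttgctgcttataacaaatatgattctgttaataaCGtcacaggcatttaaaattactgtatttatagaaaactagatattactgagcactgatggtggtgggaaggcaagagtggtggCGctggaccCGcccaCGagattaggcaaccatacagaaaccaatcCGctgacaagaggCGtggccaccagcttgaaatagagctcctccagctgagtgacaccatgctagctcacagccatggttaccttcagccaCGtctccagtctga
Tspan32: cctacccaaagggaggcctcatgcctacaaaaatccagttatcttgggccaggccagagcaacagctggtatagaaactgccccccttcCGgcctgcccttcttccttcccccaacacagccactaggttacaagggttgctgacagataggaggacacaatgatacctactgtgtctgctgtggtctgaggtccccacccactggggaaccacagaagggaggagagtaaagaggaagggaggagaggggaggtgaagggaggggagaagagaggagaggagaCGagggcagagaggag
Cd81: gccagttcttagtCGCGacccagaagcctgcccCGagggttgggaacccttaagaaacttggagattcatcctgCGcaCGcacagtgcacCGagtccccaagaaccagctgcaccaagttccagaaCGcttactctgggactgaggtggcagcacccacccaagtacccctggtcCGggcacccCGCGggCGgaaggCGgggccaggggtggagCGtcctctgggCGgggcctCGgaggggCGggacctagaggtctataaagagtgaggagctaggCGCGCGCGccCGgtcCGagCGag
The Cd81 promoter holds 23 CpG, the Tnfrsf23 promoter 9 and the Tspan32 promoter 2, against a median of 7 over all 32851 promoters. The promoters of Trim12a on the minus strand at chr7:104315446-104315745 and of its neighbour Trim34a on the plus strand at chr7:104244207-104244506 are printed next. They were chosen because both genes rose with LPS at their brightest probes. A motif like the interferon-stimulated response element (GAAA repeated after any 2 bases, either strand) is in capitals.
Trim12a: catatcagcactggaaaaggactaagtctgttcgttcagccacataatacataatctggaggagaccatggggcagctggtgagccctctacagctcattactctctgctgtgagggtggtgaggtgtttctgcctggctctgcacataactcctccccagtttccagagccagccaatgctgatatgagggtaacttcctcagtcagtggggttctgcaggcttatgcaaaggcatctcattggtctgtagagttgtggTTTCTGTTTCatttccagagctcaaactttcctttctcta
Trim34a: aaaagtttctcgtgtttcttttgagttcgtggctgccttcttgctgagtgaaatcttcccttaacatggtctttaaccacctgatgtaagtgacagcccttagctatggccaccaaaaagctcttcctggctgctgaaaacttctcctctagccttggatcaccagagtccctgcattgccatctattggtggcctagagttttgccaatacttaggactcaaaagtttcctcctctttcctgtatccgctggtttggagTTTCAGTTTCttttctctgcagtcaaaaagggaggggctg
This motif is in 3.44% of all promoters. Another neighbour, Trim30b, rose with LPS by 4.45 ± 0.27 in knockout and 4.70 ± 0.25 in wild type cells, and its promoter window does not hold the motif. None of the 8 promoters of the 9 genes holds an AP-1 motif (TGANTCA, either strand, in 7.81% of all promoters) or a CRE motif (TGACGTCA, in 1.79%). A missing match says only that these letters are not in these windows.

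Tnfrsf26, Tspan32, Tnfrsf23, Trim12a and Cd81 had the widest genotype differences of the 9 genes, all with higher signal in knockout cells. All but Cd81 were at or near the floor in untreated wild type cells. Among probes, 10 of 15 were higher on every untreated knockout array than on every untreated wild type array, 1 was lower and 4 overlapped. Over all kept probes, 11.0% were higher and 7.15% lower in this sense. With LPS, 11 were higher, 2 lower and 2 overlapped, with 17.5% and 20.5% over all kept probes. Because this difference chose the genes, nothing is read from these counts. Taken by gene, at the probe with the highest mean signal, 7 of 9 were at least 2-fold higher in untreated knockout cells and 6 of 9 with LPS, where Tssc4 was at least 2-fold lower. Over all named genes, 3.31% were at least 2-fold higher and 3.83% lower in untreated knockout cells, and 6.77% higher and 4.86% lower with LPS. Under both treatments at once, 1.63% were at least 2-fold higher and 0.853% lower.

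**Figure D1:**
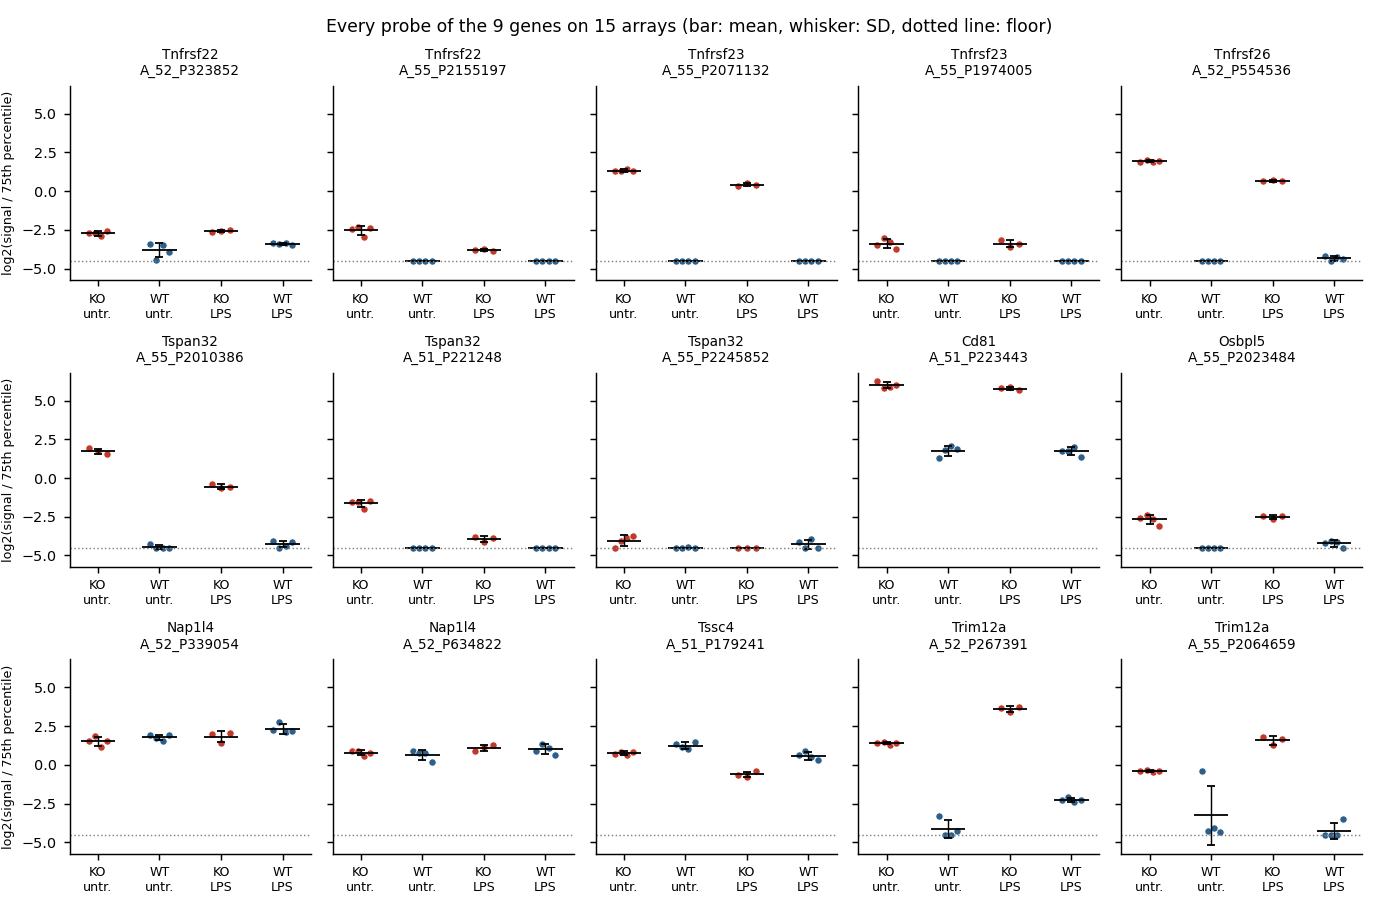
Log2 signal over the array's 75th percentile for each of the 15 probes, with knockout (KO, red) left of wild type (WT, blue) in untreated and then LPS-treated cells. Each point is 1 array, bars are means and whiskers SD, and the dotted line is the floor at -4.52. Cd81 stays above the floor in all 4 groups with a wide gap between genotypes, while the Nap1l4 groups lie at similar heights.

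Tnfrsf23, a decoy receptor gene for TRAIL, is the clearest case of the receptors. On probe A_55_P2071132 it read 1.30, 1.33, 1.43 and 1.27 on untreated and 0.30, 0.52 and 0.42 on LPS-treated knockout arrays, against the floor on all 8 wild type arrays. It was well above background on every knockout array and on no wild type array. On this scale knockout cells were therefore at least 102-fold higher without LPS and at least 45.6-fold higher with LPS. These bounds do not hold under every processing. Under normexp background correction with quantile scaling (normexp below) the log2 differences were 4.62 without and 4.08 with LPS. In the deposited value table they were 5.68 and 5.33, also below the bounds, and without the common floor 7.35 and 10.8. Such a bound sets the mean of the bright group against the mean, per array, of the higher of the lowest signal well above background and the dim probe's own signal. A second, much dimmer probe (A_55_P1974005) read -3.50, -3.02, -3.31 and -3.71 on untreated and -3.18, -3.62 and -3.39 on LPS-treated knockout arrays, again with the floor on all wild type arrays. It gave bounds of at least 4.44-fold and at least 3.24-fold on this scale. With LPS its log2 difference was 0.82 under normexp, below the bound, and 2.32 without the common floor. The probes give the same side and very different bounds.

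Tnfrsf26, a related receptor gene of the same cluster, behaved alike. It read 1.87, 2.0, 1.87 and 1.95 on untreated and 0.63, 0.73 and 0.66 on LPS-treated knockout arrays, against the floor on all 4 untreated and -4.17, -4.52, -4.24 and -4.40 on LPS-treated wild type arrays. The groups were far apart, and only 2 of 8 wild type arrays, both with LPS, were well above background. Untreated knockout cells were at least 176-fold higher on this scale. The untreated log2 difference was 5.26 under normexp and 6.22 in the deposited value table, both below that bound, and 7.90 without the common floor. With LPS the fitted difference was 5.0 ± 0.10 (SE), or 3.75 under normexp and 4.58 in the deposited value table.

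Tnfrsf22, the other decoy receptor gene, differed far less. Its brighter probe (A_52_P323852) read -2.72, -2.69, -2.91 and -2.60 on untreated and -2.65, -2.59 and -2.49 on LPS-treated knockout arrays, against -3.39, -4.42, -3.46 and -3.92 on untreated and -3.35, -3.42, -3.38 and -3.47 on LPS-treated wild type arrays. Every array was well above background, and the genotypes did not overlap. The differences were 1.06 ± 0.18 without and 0.82 ± 0.20 with LPS (SE), or 0.58 and 0.43 under normexp. The second probe (A_55_P2155197) read -2.46, -2.34, -2.93 and -2.40 on untreated and -3.82, -3.71 and -3.84 on LPS-treated knockout arrays, with all 8 wild type arrays at the floor. Its bound with LPS was at least 2.47-fold on this scale. The log2 difference with LPS was 0.54 under normexp and 1.07 in the deposited table, both below the bound, and 2.13 without the common floor.

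Tspan32 encodes a tetraspanin of blood cells. Its brightest probe (A_55_P2010386) read 1.91, 1.72 and 1.57 on untreated knockout replicates 1, 2 and 4, the spot of replicate 3 being marked by the scanner software and left out of the fit. It read -0.40, -0.68 and -0.61 on LPS-treated knockout arrays, against -4.26 on 1 and the floor on 3 untreated wild type arrays and -4.04, -4.52, -4.36 and -4.14 on LPS-treated ones. The knockout arrays stood far above. The fitted difference of 6.19 ± 0.14 without LPS (SE) rests on the floor, since 3 of 4 wild type values were there, and it was 4.85 under normexp, 4.79 in the deposited table and 6.73 without the common floor. With LPS it was 3.70 ± 0.14, or 2.55 under normexp. A second probe (A_51_P221248) read -1.56, -1.53, -2.0 and -1.46 on untreated and -3.82, -4.13 and -3.86 on LPS-treated knockout arrays, with wild type at the floor throughout, for bounds of at least 14.9-fold and at least 2.23-fold on this scale. Without LPS its log2 difference was 2.12 under normexp and 3.16 in the deposited table, both below the bound, and 5.22 without the common floor. With LPS it was 0.97 in the deposited table, also below the bound, and 2.15 without the common floor. The remaining probe (A_55_P2245852) lay at or near the floor in every group, between -4.52 and -3.75, and its genotypes overlapped.

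Cd81 encodes a tetraspanin found on many cell types. It read 6.23, 5.83, 5.89 and 6.02 on untreated and 5.78, 5.85 and 5.66 on LPS-treated knockout arrays, against 1.31, 1.82, 2.06 and 1.86 on untreated and 1.78, 1.75, 1.99 and 1.38 on LPS-treated wild type arrays. Every array was well above background and the gap between genotypes was much wider than the spread within them. Knockout cells were 18.8-fold higher without LPS (4.23 ± 0.17 on the log2 scale, SE) and 16.4-fold higher with LPS (4.04 ± 0.18). Because wild type cells gave signal too, this size does not rest on the floor.

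Osbpl5, whose human counterpart moves lipids between the endoplasmic reticulum and the plasma membrane, gave dim signal. It read -2.59, -2.37, -2.64 and -3.07 on untreated and -2.42, -2.63 and -2.46 on LPS-treated knockout arrays, against the floor on all untreated and -4.16, -4.04, -4.16 and -4.52 on LPS-treated wild type arrays. The genotypes did not overlap. Untreated knockout cells were at least 6.72-fold higher on this scale. The untreated log2 difference was 1.19 under normexp, below that bound, and 2.95 without the common floor. With LPS the difference was 1.72 ± 0.15 (SE), or 0.92 under normexp.

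Trim12a, a Trim5-related gene away from the cluster, was also much higher in knockout cells. Its brighter probe (A_52_P267391) read 1.44, 1.49, 1.30 and 1.39 on untreated and 3.67, 3.42 and 3.75 on LPS-treated knockout arrays, against -3.31, -4.52, -4.52 and -4.27 on untreated and -2.28, -2.09, -2.37 and -2.25 on LPS-treated wild type arrays. The differences were 5.56 ± 0.22 without and 5.86 ± 0.23 with LPS (SE), and the genotypes overlapped under neither treatment. Without LPS, where 2 of 4 wild type arrays were at the floor, the difference was 4.28 under normexp and 4.90 in the deposited table, and with LPS it was 5.18 under normexp. The second probe (A_55_P2064659) read -0.40, -0.35, -0.48 and -0.37 on untreated and 1.82, 1.28 and 1.67 on LPS-treated knockout arrays, against -0.42, -4.27, -4.06 and -4.30 on untreated and -4.52, -4.52, -4.52 and -3.51 on LPS-treated wild type arrays. Untreated wild type replicate 1 alone reached the knockout level on this probe, so the untreated genotypes overlapped. Trim12a has close relatives beside it, such as Trim12c, and how far these probes bind their transcripts was not tested.

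The 2 remaining genes did not share the direction of the others. Tssc4, whose human counterpart takes part in assembling the splicing machinery, read 0.73, 0.86, 0.61 and 0.84 on untreated and -0.64, -0.78 and -0.42 on LPS-treated knockout arrays, against 1.34, 1.14, 1.03 and 1.49 on untreated and 0.64, 0.89, 0.53 and 0.30 on LPS-treated wild type arrays. Knockout cells were lower without overlap, by -0.49 ± 0.14 without and -1.20 ± 0.15 with LPS (SE). Nap1l4, a histone chaperone gene, goes against the description of these genes as differing by genotype. Its brighter probe (A_52_P339054) read 1.54, 1.86, 1.16 and 1.55 on untreated and 1.97, 1.41 and 2.08 on LPS-treated knockout arrays, against 1.90, 1.76, 1.52 and 1.92 on untreated and 2.26, 2.79, 2.12 and 2.16 on LPS-treated wild type arrays. The untreated genotypes overlapped (-0.25 ± 0.20, SE), and the LPS-treated ones did not (-0.51 ± 0.21). The second probe (A_52_P634822) overlapped under both treatments, with differences of 0.12 ± 0.18 and 0.11 ± 0.20.

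Along the chromosome, large and small differences were interspersed. In the order of the RefSeq table the 8 clustered genes run Tspan32, Cd81, Tssc4, Nap1l4, Tnfrsf26, Tnfrsf22, Tnfrsf23 and Osbpl5, with 5 other measured genes between them. Of these 5, Slc22a18, an imprinted gene for a membrane transporter, was higher in knockout cells by 2.04 ± 0.24 without and 1.70 ± 0.26 with LPS (SE) and was above background on every array. None of the 25 measured genes before the cluster was at least 2-fold different in the same direction under both treatments. Of the 10 after it, Mrgpre was higher, with wild type above background on no array. Dhcr7, the last enzyme of cholesterol synthesis, was lower by -1.09 ± 0.17 without LPS, and with LPS it was at the floor on all knockout arrays and above background on all wild type arrays. Around Trim12a, its neighbour Trim34a was higher in knockout cells by 2.51 ± 0.19 without and 2.30 ± 0.21 with LPS, with signal above background on every array. Among 50 genes around Junb, Gm2694 was higher (1.01 ± 0.12 and 1.11 ± 0.13). Among 50 around Lyz2, Lyz1 was lower (-3.34 ± 0.12 and -3.05 ± 0.13), but it is a close copy of Lyz2 and its probe may bind both.

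**Figure D2:**
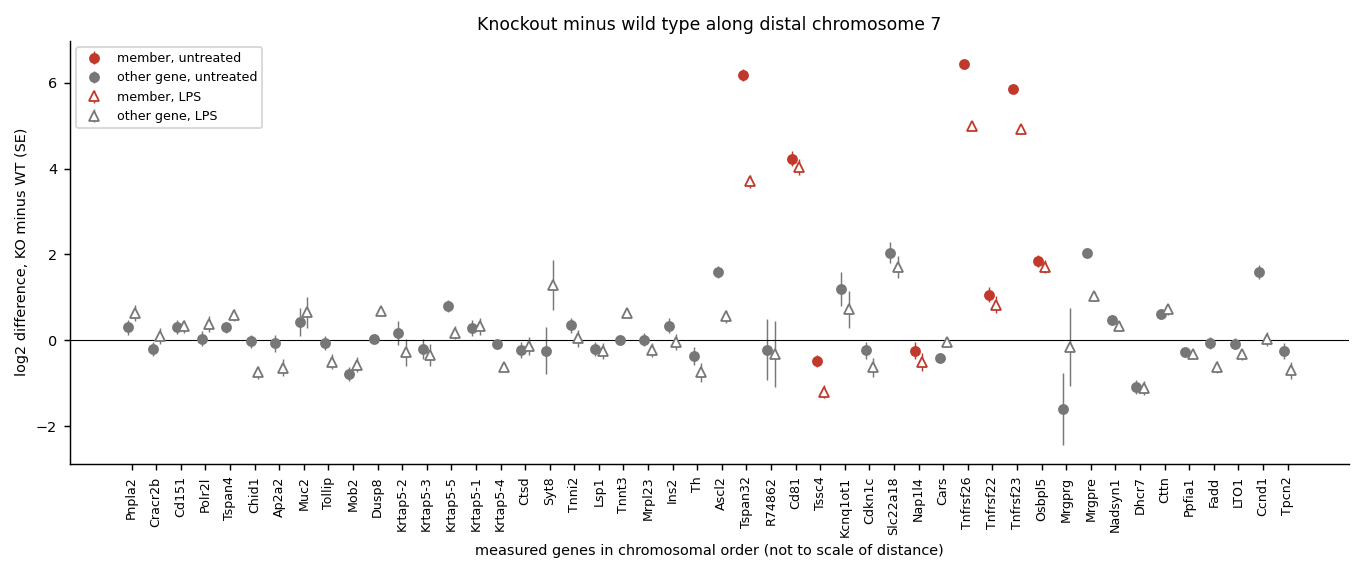
Log2 difference, knockout minus wild type, with SE, for the measured genes from 25 before to 10 after the cluster in chromosomal order, untreated (filled circles) and with LPS (open triangles). The 8 clustered genes are red, and Tspan32, Cd81, Tnfrsf26 and Tnfrsf23 stand above 3 while Tssc4 and Nap1l4 lie below 0.

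**Figure D3:**
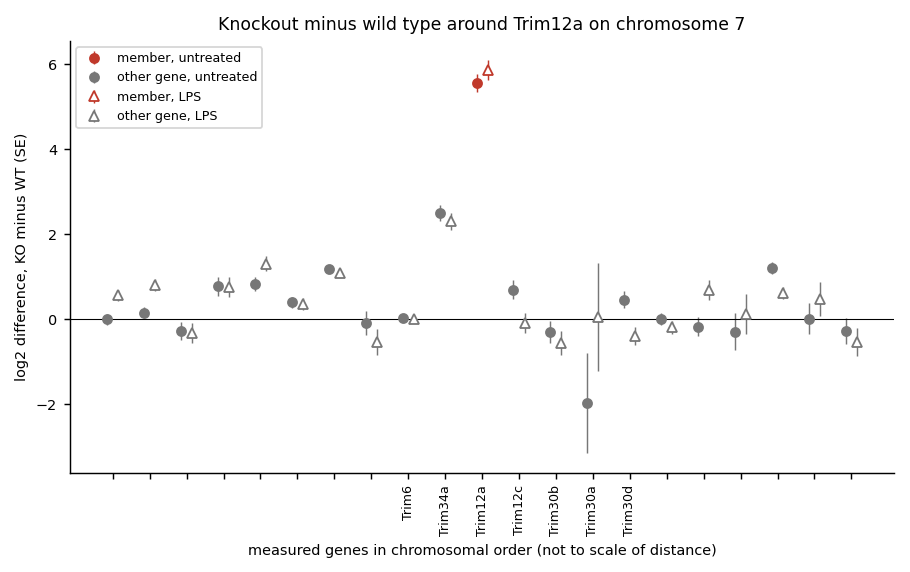
Log2 difference, knockout minus wild type, with SE, for Trim12a (red) and the 10 measured genes on either side in chromosomal order, untreated (filled circles) and with LPS (open triangles). Only Trim genes are labelled. Trim12a stands at 5.56 and 5.86 and its neighbour Trim34a at 2.51 and 2.30.

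LPS responses were not used to choose the genes and were tested within each genotype, that is, within a slide. In knockout cells Tspan32, Tnfrsf26, Tnfrsf23 and Tssc4 fell with LPS and Trim12a rose at their brightest probes, while Tnfrsf22, Cd81, Osbpl5 and Nap1l4 did not pass the test. Of the 15 probes, 2 were higher, 7 lower and 6 did not pass in knockout cells, where 51.9% of all kept probes passed (31.2% higher, 20.7% lower). The 7 include the dim Tspan32 probe, which passed the filter only through untreated knockout cells, where it was highest. For wild type cells the counts of higher, lower and not passing were 2, 1 and 12, where 53.6% of all kept probes passed (33.9% higher, 19.7% lower). Of these 12, 4 were at the floor on all 8 wild type arrays and could not have passed, so this count is not read against that share. The test was limma's moderated test with Benjamini-Hochberg adjustment over all kept probes. The median change over the 15 probes was -0.23 in knockout and 0.19 in wild type cells. The median of all kept probes was 0.31 with LPS in knockout and 0.19 in wild type cells, and close to 0 under quantile scaling (0.02 and -0.03). Of all calls, 60.1% were rises in knockout cells and 63.3% in wild type cells, against 41.2% and 47.0% under quantile scaling.

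Tspan32 fell most, by 2.29 ± 0.15 in knockout cells on its brightest probe (limma adjusted p = 6.1e-08) and by 2.30 ± 0.13 on the second (limma adjusted p = 4.2e-09). Relative to the median of all probes these changes were -2.61 on both. In the deposited value table the brightest probe gave -1.49 and missed the threshold (limma adjusted p = 0.051). The dim remaining probe fell by 0.48 ± 0.18 (limma adjusted p = 0.039), a call lost without any 1 of 6 knockout arrays. It passed the filter on dim probes only through untreated knockout cells, where it was highest. With no such filter the call was lost too (limma adjusted p = 0.064), and this fall is not read as a result. Tnfrsf26 fell by 1.25 ± 0.10 (limma adjusted p = 1.5e-07) and Tnfrsf23 by 0.92 ± 0.09 (limma adjusted p = 9.0e-07), and without the common floor Tnfrsf23 kept its value of -0.92 but with an SE of 2.53 (limma adjusted p = 0.77). The 4 groups share 1 estimate of the spread. For this probe the SD was 0.07 on untreated and 0.11 on LPS-treated knockout arrays. Wild type arrays at the floor had an SD of 0, which narrows the shared SE of probes at the floor in wild type cells. The probes of one gene disagreed for both decoy receptors. Tnfrsf23 changed by -0.01 ± 0.15 on its dim probe (limma adjusted p = 0.95). Tnfrsf22 fell by 1.26 ± 0.13 on its second probe (limma adjusted p = 1.7e-06) and changed by 0.15 ± 0.20 on its brighter one (limma adjusted p = 0.54). In wild type cells the brighter Tnfrsf22 probe changed by 0.39 ± 0.18 (limma adjusted p = 0.089) and passed without untreated replicate 1 (0.53) or 3 (0.51).

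On its brighter probe Trim12a rose with LPS in both genotypes, whose levels were far apart. The change was 2.21 ± 0.23 in knockout cells (limma adjusted p = 2.9e-06) and 1.91 ± 0.22 in wild type cells (limma adjusted p = 4.8e-06), where 2 of 4 untreated arrays were at the floor. The difference between these responses was 0.30, with a 95% interval of -0.39 to 0.99 (limma adjusted p = 0.63), and it passed the test under normexp background correction at 0.90. On the second probe the knockout rise of 1.99 ± 0.73 (limma adjusted p = 0.034) missed the threshold on leaving out any 1 knockout array, with values of 1.87 to 2.14 (limma adjusted p = 0.057 to 0.091). Without untreated wild type replicate 1 the difference of responses on that probe was 2.04 (limma adjusted p = 0.0025), against 2.99 (limma adjusted p = 0.096) with it.

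Tssc4 fell by 1.37 ± 0.15 in knockout cells (limma adjusted p = 5.3e-06) and by 0.66 ± 0.14 in wild type cells (limma adjusted p = 0.0014). The difference of -0.71 ± 0.21 did not pass (limma adjusted p = 0.064), and it passed without wild type replicate 4 of either treatment (-0.79 untreated, -0.81 LPS), under normexp (-0.80) and in the deposited value table (-1.03). With 1 probe per gene it also passed (limma adjusted p = 0.044). Nap1l4 rose by 0.56 ± 0.20 in wild type cells (limma adjusted p = 0.028), a call lost under normexp (0.18), in the deposited table (0.26), under quantile scaling (0.33), with no filter on dim probes (0.56) and without untreated wild type replicate 2 (0.55) or 3 (0.47) or LPS-treated wild type replicate 2 (0.40). Cd81 changed by -0.23 ± 0.18 in knockout cells (limma adjusted p = 0.30) and by -0.04 ± 0.17 in wild type cells (limma adjusted p = 0.88). Under quantile scaling the knockout change was -0.97 and passed, as it did under normexp and in the deposited table (-0.96 in both). Its difference from the wild type response then passed under quantile scaling (-0.77) and normexp (-0.73). Osbpl5 changed by 0.16 ± 0.15 in knockout cells (limma adjusted p = 0.40) and by 0.30 ± 0.14 in wild type cells (limma adjusted p = 0.097), which passed without LPS-treated wild type replicate 4 (0.40), without untreated knockout replicate 4 (0.30) and without the common floor (1.27).

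**Figure D4:**
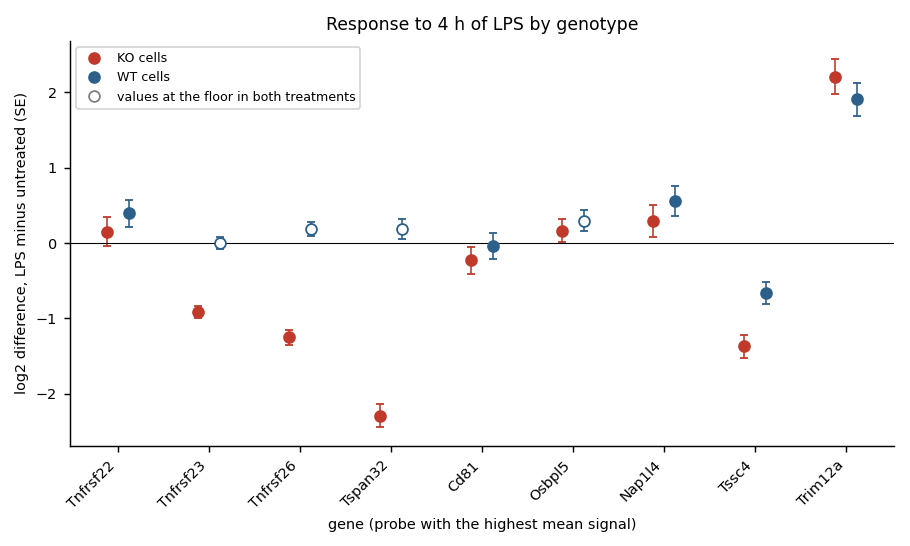
Log2 difference, LPS minus untreated, with SE, at the brightest probe of each gene, in knockout (KO, red) left of wild type (WT, blue) cells. Open points mark groups with values at the floor under both treatments. Tspan32 has the lowest knockout value at -2.29 and Trim12a the highest at 2.21.

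The difference of the LPS responses passed the test for 5 of 15 probes, all lower in knockout cells, against 6.43% of all kept probes (1.84% higher, 4.59% lower). They were Tspan32 on 2 probes (-2.48 ± 0.20 and -2.30 ± 0.17, SE), Tnfrsf26 (-1.44 ± 0.13), Tnfrsf22 on its second probe (-1.26 ± 0.17) and Tnfrsf23 on its brightest (-0.92 ± 0.12). Wild type signal was at or near the floor for all 5, so with this floor a wild type fall could not have been seen. On the second Tnfrsf22 probe 3 of 4 untreated and no LPS-treated wild type arrays were well above background. Its wild type fall passed under normexp (-0.39), in the deposited table (-0.88) and without the floor (-1.05). Without the floor the wild type change was a rise for Tnfrsf26 (1.49) and both Tspan32 probes (0.72 and 0.76). For the second Tspan32, second Tnfrsf22 and brightest Tnfrsf23 probes the floor fixes the wild type side, and the values restate the fall in knockout cells. For Tnfrsf26 and the brightest Tspan32 probe wild type cells changed by 0.19 with the floor, which limits that side without fixing it. The count is not read as a difference between genotypes. The calls of Tnfrsf22 and Tnfrsf23 were lost under normexp, in the deposited table and without the common floor, and that of the brightest Tspan32 probe in the deposited table. Of the 5 probes above background on every array (Tnfrsf22's brighter probe, Cd81, both Nap1l4 probes and Tssc4), none passed.

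Other genes of the same pathways responded to LPS in both genotypes. The lists were chosen with earlier results of these data known. Of 18 TRAIL and death receptor pathway genes, knockout cells had 15 that rose, 2 that fell and 1 without a call, and wild type cells had 15, 1 and 2, where 58.3% and 59.2% of all genes passed. The list's median change was 1.12 in knockout and 1.38 in wild type cells, against 0.19 and 0.14 over all genes. The ligand gene Tnfsf10 (TRAIL) rose by 6.21 ± 0.23 in knockout and 4.91 ± 0.22 in wild type cells. The gene for the signalling TRAIL receptor, Tnfrsf10b, rose by 1.29 ± 0.16 in knockout cells (limma adjusted p = 1.5e-05) and changed by 0.28 ± 0.15 in wild type cells (limma adjusted p = 0.14). Of 9 measured Trim genes of chromosome 7 other than Trim12a, each genotype had 6 that rose, 1 that fell and 2 without a call, with medians of 3.01 in knockout and 2.83 in wild type cells. Trim34a rose by 2.37 ± 0.21 in knockout and 2.58 ± 0.19 in wild type cells, and Trim68 fell by 1.94 ± 0.14 in knockout and 1.09 ± 0.13 in wild type cells.

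Among 17 tetraspanin and CD81 partner genes, knockout cells had 6 that rose with LPS, 4 that fell and 7 without a call, and wild type cells had 6, 3 and 8. Tspan14 fell by 2.03 ± 0.13 in knockout and 1.81 ± 0.12 in wild type cells, and Tspan33 rose by 2.82 ± 0.14 in knockout and 1.18 ± 0.13 in wild type cells. Of 8 measured imprinted genes of the region, knockout cells had 3 that rose, 3 that fell and 2 without a call, and wild type cells had 4, 2 and 2. Of 10 oxysterol-binding protein genes, 1 rose and 4 fell in knockout cells, and 2 rose and 1 fell in wild type cells. Of 5 nucleosome assembly protein genes, 2 rose and 1 fell in each genotype. Over all genes 58.3% passed in knockout and 59.2% in wild type cells, so the share of tetraspanin genes with a call (10 of 17 and 9 of 17) was near the background.

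For each gene the named gene with the most similar pattern was found by Pearson correlation of log2 values over the arrays, which share slides and genotypes. Tnfrsf23 was most like Tnfrsf26 (r = 0.999) and Tnfrsf26 most like 5830417I10Rik (r = 0.999), as was Tspan32 over 14 arrays (r = 0.988). Cd81 was most like the Y-linked gene Ddx3y (r = 0.994). Osbpl5 was most like Cd55b (r = 0.982), Trim12a like Chad (r = 0.983), Tnfrsf22 like Plekhg6 (r = 0.953), Nap1l4 like Fiz1 (r = 0.960) and Tssc4 like Trim68 (r = 0.991).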

How the data were processed

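RNA from 15 macrophage cultures was measured on single-colour Agilent arrays. Per the file headers, the scans were quantified in Agilent Feature Extraction 10.7.3.1, the probe design refers to mm9, and the processed signal is an intensity from which the software had subtracted background. The deposited value table holds log2 values whose exact normalisation is not given in the sources used here, and it served as an alternative. Here the processed signal was divided by each array's 75th percentile, raised to a floor of 0.0436 of it, and log2 was taken. Spots marked as non-uniform or outliers were left out. Kept probes were well above background in 3 or more arrays of any 1 group. Symbols came from RefSeq accessions (GRCm38.p6 table, used for names and gene order). A gene's probe was the kept probe with the highest mean.

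limma 3.58.1 in R 4.3.3 was fitted to 4 group means over all 15 arrays with Benjamini-Hochberg adjustment over all kept probes at 0.05. The fit was also tested on simulated data. These were independent normal values not cut at the floor, so that test does not cover probes at the floor. The mean spot signal planned for normexp was not in the files, so the median signal took its place. Genes, lists and tests were chosen with earlier results of these data known. The named genes were the 9 members, neighbours at least 2-fold different in both treatments, the most similar gene of each member, and genes of fixed lists. Some of these are not reported here. Alternatives were other background correction, scaling, value source, filters, floor and spot flags, 1 probe per gene, the replicate number as a block, and leaving out arrays. Deviations from group means of same-numbered samples correlated at 0.14 to 0.45 between LPS-treated knockout and wild type arrays, over 0.1 in all 3 pairs, so the numbers were taken to pair these samples. This pairing is an assumption, and between untreated knockout and wild type arrays the same numbers correlated at -0.39 to -0.08. In the other comparisons some pairs were under 0.1 (-0.53 to 0.56), so the numbers were not taken to pair those samples. Such correlations over few arrays cannot decide whether samples were paired. The number of arrays and, for dim probes, signal over background limit the precision.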

Additional observations from a re-analysis of the deposited data

Results flagged for a closer look

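Of 34 groups of 4 arrays tested for a single outlying array among the 15 probes, 4 had one. In 3 of the 4 the other arrays shared the floor value, so any value above it stands out and the chance rate of about 5% does not apply. On the second Trim12a probe (A_55_P2064659), untreated wild type replicate 1 read -0.42 and LPS-treated wild type replicate 4 read -3.51, each above the other arrays of its group. On Tspan32, untreated wild type replicate 1 read -4.26 on probe A_55_P2010386 and untreated wild type replicate 3 read -4.48 on probe A_55_P2245852, with the other 3 arrays of each group at the floor.

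The difference of the LPS responses, knockout minus wild type, passed limma's test for 5 probes. The values were -2.48 and -2.30 for Tspan32, -1.44 for Tnfrsf26, -1.26 for Tnfrsf22 (second probe) and -0.92 for Tnfrsf23. Wild type cells were at or near the floor on all 5. This fixes their side for the second Tspan32, second Tnfrsf22 and brightest Tnfrsf23 probes, whose values restate the fall in knockout cells. For Tnfrsf26 and the brightest Tspan32 probe wild type cells changed by 0.19 with the floor, which limits that side without fixing it. For the second Tnfrsf22 probe a wild type fall passed under normexp, in the deposited table and without the floor.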

How the results depend on the processing

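By gene, 5 genes passed for the LPS response in knockout cells, 3 in wild type cells and 3 for the difference, and 7 and 6 were at least 2-fold higher in knockout cells without and with LPS. Leaving out 1 array at a time gave 5 to 5, 2 to 4, 3 to 4, 6 to 7 and 6 to 6. With the replicate block these counts were 5, 3, 3, 7 and 6, so it changed no count, also in the LPS-treated comparison, where the numbers were taken to pair the samples. Without the 3 arrays farthest from their group means (untreated knockout replicate 3, untreated wild type replicate 1 and LPS-treated wild type replicate 4, chosen after seeing the data) they were 5, 4, 4, 7 and 6. Normexp gave 5 genes for the difference, and no common floor gave 6 for wild type. The cause was not tested.

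Sign changes were counted only where the main fit or the alternative had a call, and a move away from 0 was included. In 7 cases such a value had another sign than in the main fit. For 6 of them the wild type change had been 0 because every array was at the floor: Tnfrsf22 (A_55_P2155197) gave -0.39 under normexp, -0.88 in the deposited table and -1.05 without the floor, Tnfrsf23 gave -0.32 under normexp (A_55_P2071132) and 2.29 without the floor (A_55_P1974005), and Tspan32 (A_51_P221248) gave 0.76 without the floor. The difference for Tnfrsf23 (A_55_P2071132) was 3.43 ± 3.45 without the floor (limma adjusted p = 0.63), so its call was lost, as it was under normexp (-0.54) and in the deposited table (-0.35). The Tnfrsf22 difference was lost under the same 3 alternatives (-0.54, -0.37 and -0.21), and that of Tspan32's brightest probe in the deposited table (-1.55). Of the other single-probe values, 1706 kept their call, had no call in either fit or stayed within the spread. Another 60 moved, 30 gained a call and 32 lost theirs.

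Over all kept probes the difference of responses was called for 2091, against 1320 under normexp, 1208 without the floor, 570 in the deposited table, 1293 without LPS-treated knockout replicate 3 and 3168 without the 3 arrays above. The knockout response was called for 16867, against 10947 in the deposited table. With 1 probe per gene, where 14192 were tested, the responses were called for 8507 in knockout and 8580 in wild type cells, against 16867 and 17421 probes.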
